A study of Mus musculus with 8 samples.

Results

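The 10 genes of prostaglandin synthesis, breakdown and sensing were followed in 4 lines of mouse mammary tumour cells, namely 67NR, 66cl4, 4T1 and 4T1.2. They were found in the count matrix by the Entrez identifiers of their symbols, and all 10 were present among its 27179 genes. The set holds both cyclooxygenases (Ptgs1, Entrez 19224, and Ptgs2, 19225), a pair of prostaglandin E synthases (Ptges, 64292, and Ptges2, 96979) and the prostacyclin synthase Ptgis (19223). It also holds the degrading enzyme Hpgd (15446) and the 4 receptors of prostaglandin E2, Ptger1 (19216), Ptger2 (19217), Ptger3 (19218) and Ptger4 (19219). All 4 lines are cultured BALB/c-derived tumour cells for which the labels give no treatment or engineered allele, each with 2 biological replicates, so 8 RNA-seq libraries in all. 4T1.2 is a clonal subline of 4T1, and 66cl4 and 67NR are sibling lines that metastasise less. Each line is a single lineage, so a difference between lines cannot be told apart from a difference between the clones behind them.

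Prostaglandins are lipid signals made from arachidonic acid, which phospholipases free from membranes. The cyclooxygenases turn it into prostaglandin H2, the constitutive Ptgs1 in most tissues and the inducible Ptgs2 after inflammatory or growth signals. Terminal synthases convert prostaglandin H2 into prostaglandin E2 or prostacyclin, transporters move the products across the membrane, Hpgd inactivates them, and the receptors couple to different G proteins. In mammary tumours the pathway is best known for prostaglandin E2, which acts on tumour, endothelial and immune cells alike.

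The RNA-seq depth was 37159840 to 66269681 counts per library. Levels below are RPKM, counts per kilobase of gene and per 1000000 counts of the TMM-scaled library, which can be compared between genes, and CPM is the same without gene length. Of the 10 genes, 7 had enough counts to be tested (Ptgs1, Ptgs2, Ptges, Ptges2, Ptgis, Ptger1 and Ptger4), and Hpgd, Ptger2 and Ptger3 did not. Among epithelial markers, Krt8 had at least 16981 counts in every library. Epcam and Cdh1 had at least 629 counts in every 4T1.2 and 4T1 library and at most 7 in the 66cl4 and 67NR libraries. Summed over the 8 epithelial markers, the level was 1474 to 2891 CPM in 4T1.2 and 4T1 and 464 to 719 CPM in 66cl4 and 67NR. Of the 8 leucocyte markers, Ptprc, Cd3e and Adgre1 had at most 2 counts in any library. The summed leucocyte level was 4.04 to 5.60 CPM in 4T1.2 and 4T1 and 19.4 to 25.6 CPM in 66cl4 and 67NR, where Lyz2 gave 791 to 1387 counts. Of the 3 leucocyte markers tested, Lyz2 alone was lower in the pooled comparison of 4T1 and 4T1.2 with 66cl4 and 67NR, and Cd68 and Itgam were higher (log2 fold changes 0.97 and 2.04). Of the 8 mesenchymal markers 2 were higher (Vim, log2 fold change 1.16, and Snai1, with 562 to 1250 counts against at most 2), 5 lower and 1 did not pass, and their summed level was 5490 to 7509 CPM in 4T1.2 and 4T1 and 3312 to 5557 CPM in 66cl4 and 67NR. Cdh2, Zeb1 and Snai2 had at most 28 counts in any 4T1.2 or 4T1 library and at least 2311 in any 66cl4 or 67NR library. Markers in both directions thus moved with the pooled differences below, and their part in those differences was not tested.

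The promoters of 8 of the 10 genes were matched by symbol in RefSeq (build GRCm38.p6), all but Ptger1 and Ptgis. Of these, 4 are shown, each as the 150 bases before the RefSeq start, because their genes carry the contrasts described below. Ptges and Ptges2 differed between the pairs of lines in opposite directions, Ptger4 had the widest span between lines, and Hpgd was not detected. Capitals mark matches to the motifs searched.

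Ptges, chr2:30903298-30903447, minus strand: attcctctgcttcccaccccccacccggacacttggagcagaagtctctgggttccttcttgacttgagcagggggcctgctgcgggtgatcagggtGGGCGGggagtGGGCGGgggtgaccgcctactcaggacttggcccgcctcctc
Ptges2, chr2:32395740-32395889, plus strand: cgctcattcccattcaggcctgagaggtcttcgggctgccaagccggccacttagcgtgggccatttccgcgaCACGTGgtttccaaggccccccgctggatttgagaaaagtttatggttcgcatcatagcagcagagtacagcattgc
Ptger4, chr15:5244188-5244337, minus strand: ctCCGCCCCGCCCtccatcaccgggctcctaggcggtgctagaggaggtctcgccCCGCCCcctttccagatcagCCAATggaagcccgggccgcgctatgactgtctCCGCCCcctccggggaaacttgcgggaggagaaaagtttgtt
Hpgd, chr8:56294402-56294551, plus strand: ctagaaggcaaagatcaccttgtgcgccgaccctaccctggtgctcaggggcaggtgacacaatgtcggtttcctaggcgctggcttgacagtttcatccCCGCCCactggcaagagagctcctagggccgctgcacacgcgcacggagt

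In all, 6 motifs were searched on both strands of the 300 bases around the start, 250 before and 50 after, in 32851 promoters. The GC box (GGGCGG, or CCGCCC on the other strand) was found in 5 members, Ptges, Ptger4, Hpgd, Ptger3 and Ptgs2, and in 35.7% of all promoters. Ptges had it at positions -53 and -42 from the start, and Ptger4 had 4 copies with first bases at -148, -143, -95 and -42. The CCAAT box (CCAAT) was found in Ptger4 at -75 and in Ptger2, against 37.4% of all promoters. The E-box CACGTG was found in Ptges2 at -77 and in Ptgs2, against 7.15% of all promoters. The TATA box (TATAAA) was found in Hpgd alone among members (13.6% of all promoters), the core of the cAMP response element (TGACG) in Ptgs2 alone (20.8%), and the AP-1 site (TGANTCA) in none of the 8 (7.81%). The TATAAA of Hpgd and the TGACG of Ptgs2 lie just after the RefSeq start, in stretches of 30 bases shown here because Ptgs2 is the member known as inducible and Hpgd the undetected one. A match is a description of letters and not a binding site.

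Ptgs2, chr1:150100033-150100062, plus strand: agtcaccactaCGTCACGTGgagtccgctt
Hpgd, chr8:56294552-56294581, plus strand: gggcTATAAAagctgctgcggcgtccagac

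In the Ptgs2 stretch the first capitals hold CGTCA, the reverse complement of TGACG, from position 14, and it overlaps the CACGTG that begins at position 17. In the Hpgd stretch the TATAAA begins at position 5. That whole stretch, which ends at 56294581, lies before the GENCODE start of Hpgd at 56294585.

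To see which steps of the pathway these cells express, the levels were first ranked against all 13925 genes tested, whose median was 9.84 RPKM. Both cyclooxygenases were among the abundant transcripts, with means over the 8 libraries of 90.1 RPKM for Ptgs1 and 91.4 RPKM for Ptgs2, above 93.7% and 93.8% of the genes tested. Ptges followed at 55.3 RPKM (above 88.2%), and Ptges2 and Ptger1 lay near the middle at 12.5 RPKM (above 55.8%) and 10.3 RPKM (above 51.2%). Ptger4 (0.363 RPKM, above 13.1%) and Ptgis (0.350 RPKM, above 12.9%) were scarce. Hpgd was not detected, and Ptger2 and Ptger3 had 6 and 2 counts over all libraries. The 4 lines thus shared high levels of the cyclooxygenases beside low or undetected levels of 3 of the 4 receptors and of the degrading enzyme. Ptges was above the median of 9.84 RPKM in every library, but its level was not shared. Its line means were 22.5 and 29.9 RPKM in 4T1 and 4T1.2 and 79.1 and 89.5 RPKM in 66cl4 and 67NR.

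**Figure D1:**
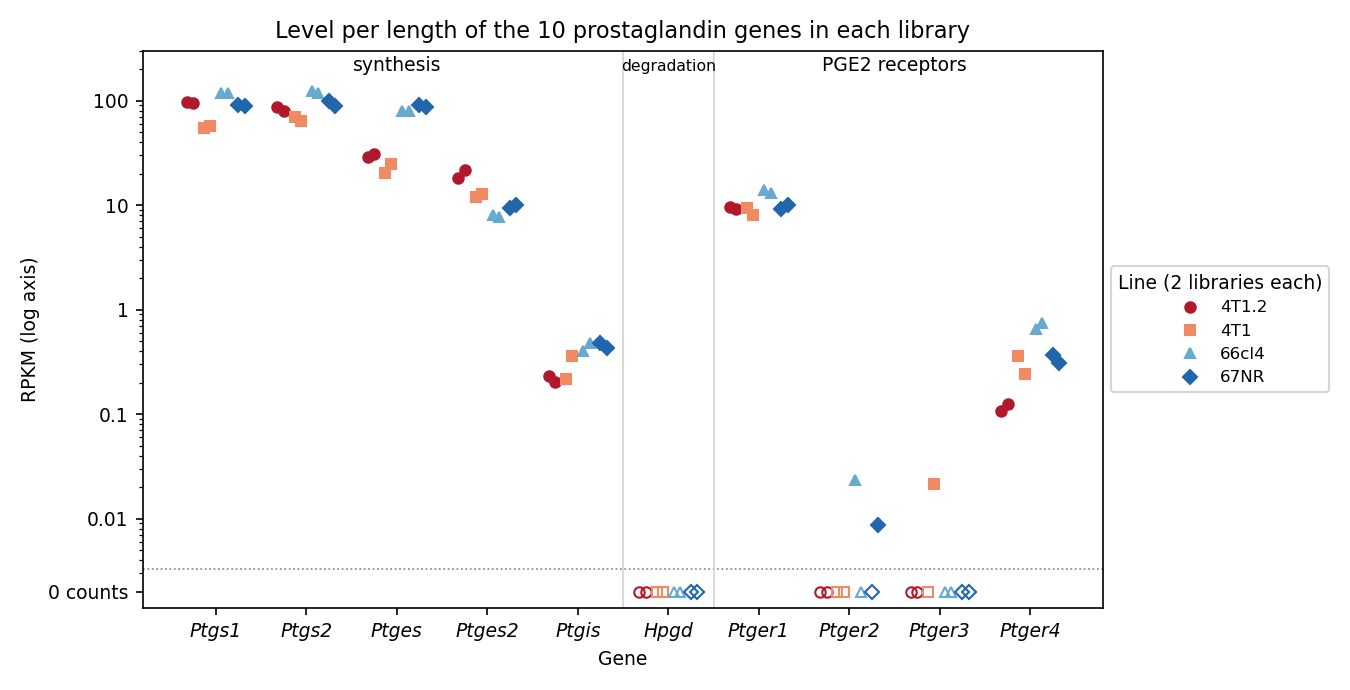
RPKM on a log axis of the 10 genes in each of the 8 libraries, with a symbol and colour for each line and open symbols below the dotted line for libraries with 0 counts. Ptgs1, Ptgs2 and Ptges lie between 20.2 and 123 RPKM in every library, whereas Hpgd has 0 counts in all 8.

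Ptgs1 (chr2:36230426-36252272, plus strand in GENCODE on GRCm38) encodes the cyclooxygenase of housekeeping prostaglandin synthesis. It was measured at 96.2 and 95.0 RPKM in the 4T1.2 libraries, 54.4 and 57.5 in 4T1, 91.2 and 89.0 in 67NR and 118 and 119 in 66cl4. The order was 66cl4 (119 ± 0.550 RPKM, mean ± SD, n = 2), 4T1.2 (95.6 ± 0.861), 67NR (90.1 ± 1.55) and 4T1 (56.0 ± 2.23). The 4T1 libraries lay below all others and the 66cl4 libraries above all others, and 4T1.2 and 67NR were the neighbours that did not pass the test (log2 fold change 0.08, SE 0.08, adjusted p = 0.359, edgeR quasi-likelihood test). Ptgs1 was 1.71-fold higher in 4T1.2 than in its parent line 4T1 (log2 fold change 0.77, SE 0.08, adjusted p = 0.000179). In 66cl4 it was 1.32-fold higher than in 67NR (log2 fold change 0.40, SE 0.08, adjusted p = 0.00263). In the pooled comparison, which sets the average of 4T1 and 4T1.2 against that of 66cl4 and 67NR, it was 1.42-fold lower (log2 fold change -0.50, SE 0.06, adjusted p = 1.95e-05). With 4T1.2 above 67NR, the libraries of the pooled groups overlapped, and in a fit of 2 groups of 4 libraries Ptgs1 did not pass (adjusted p = 0.0946). In bulk RNA, fewer expressing cells and less RNA per cell cannot be told apart, here or below.

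Ptgs2 (chr1:150100031-150108227, plus strand) encodes the inducible cyclooxygenase. Its libraries stood at 87.1 and 79.4 RPKM in 4T1.2, 69.7 and 64.3 in 4T1, 99.6 and 89.5 in 67NR and 123 and 118 in 66cl4. Every 66cl4 and 67NR library was above every 4T1.2 and 4T1 library, though 67NR replicate 2 and 4T1.2 replicate 1 were close. The line means were 121 ± 3.94 RPKM in 66cl4, 94.6 ± 7.17 in 67NR, 83.3 ± 5.38 in 4T1.2 and 67.0 ± 3.82 in 4T1 (SD, n = 2). Ptgs2 was 1.43-fold lower in the pooled comparison (log2 fold change -0.52, SE 0.07, adjusted p = 6.55e-05). Between the sibling lines 66cl4 and 67NR it was 1.28-fold higher in 66cl4 (log2 fold change 0.35, SE 0.10, adjusted p = 0.0143). The neighbours 67NR and 4T1.2 did not pass (log2 fold change -0.18, SE 0.10, adjusted p = 0.115). 4T1.2 was 1.24-fold above 4T1 (log2 fold change 0.31, SE 0.10) with an adjusted p of 0.0479, just under the threshold of 0.05. That call did not hold with DESeq2's size factors (adjusted p = 0.0501), with a filter of at least 10 counts (0.0610), without removal by annotation (0.0603) or in 7 of the 8 fits that left out a library, and the call between 66cl4 and 67NR was lost without 66cl4 replicate 1 (0.0711) or 67NR replicate 2 (0.134).

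Within a library the cyclooxygenases were close to each other in level. The ratio of Ptgs2 to Ptgs1 RPKM was 0.905 and 0.837 in 4T1.2, 1.28 and 1.12 in 4T1, 1.09 and 1.01 in 67NR and 1.04 and 0.989 in 66cl4. It was lowest in both 4T1.2 libraries and highest in both 4T1 libraries.

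Ptges (chr2:30889471-30929863, minus strand) encodes the microsomal synthase that makes prostaglandin E2 downstream of the cyclooxygenases. It was measured at 28.9 and 30.9 RPKM in 4T1.2, 20.2 and 24.8 in 4T1, 91.5 and 87.5 in 67NR and 79.3 and 78.9 in 66cl4. The highest 4T1.2 or 4T1 library was well below the lowest library of 66cl4 or 67NR. Line means were 89.5 ± 2.84 RPKM in 67NR, 79.1 ± 0.312 in 66cl4, 29.9 ± 1.38 in 4T1.2 and 22.5 ± 3.22 in 4T1 (SD, n = 2). Ptges was 3.24-fold lower in the pooled comparison (log2 fold change -1.70, SE 0.08, adjusted p = 1.69e-08). It was lower in each of the 4 comparisons of a 4T1 line with a sibling line, from 2.65-fold for 4T1.2 against 66cl4 (adjusted p = 1.51e-06) to 3.97-fold for 4T1 against 67NR (adjusted p = 1.27e-07). Between 66cl4 and 67NR it did not pass (log2 fold change -0.18, SE 0.10, adjusted p = 0.194). In 4T1.2 it was 1.33-fold above 4T1 (log2 fold change 0.41, SE 0.10, adjusted p = 0.0230), a call lost without 4T1.2 replicate 1 (0.0684), 4T1.2 replicate 2 (0.139), 4T1 replicate 1 (0.0784) or 67NR replicate 1 (0.050003).

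Ptges2 (chr2:32395896-32405772, plus strand) encodes a second membrane-associated protein named as a prostaglandin E synthase. Its libraries stood at 18.3 and 21.6 RPKM in 4T1.2, 11.99 and 12.88 in 4T1, 9.47 and 10.1 in 67NR and 8.06 and 7.65 in 66cl4. Here 4T1.2 and 4T1 were above 66cl4 and 67NR, the reverse of Ptges, and again no 4T1.2 or 4T1 library overlapped with 66cl4 or 67NR. It was 1.80-fold higher in the pooled comparison (log2 fold change 0.84, SE 0.08, adjusted p = 5.51e-06), the only tested member that was higher. 4T1.2 was 1.61-fold above 4T1 (log2 fold change 0.68, SE 0.11, adjusted p = 0.00233). 4T1 was 1.27-fold above 67NR (log2 fold change 0.34, SE 0.11, adjusted p = 0.0203), a call lost without 4T1 replicate 2 (0.0793), 67NR replicate 1 (0.117) or 67NR replicate 2 (0.0544). 66cl4 was 1.25-fold below 67NR (log2 fold change -0.32, SE 0.11, adjusted p = 0.0451). This last call was lost under limma-voom (adjusted p = 0.0561) and without each of the 4 libraries of 66cl4 and 67NR in turn (0.0934 to 0.214).

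**Figure D2:**
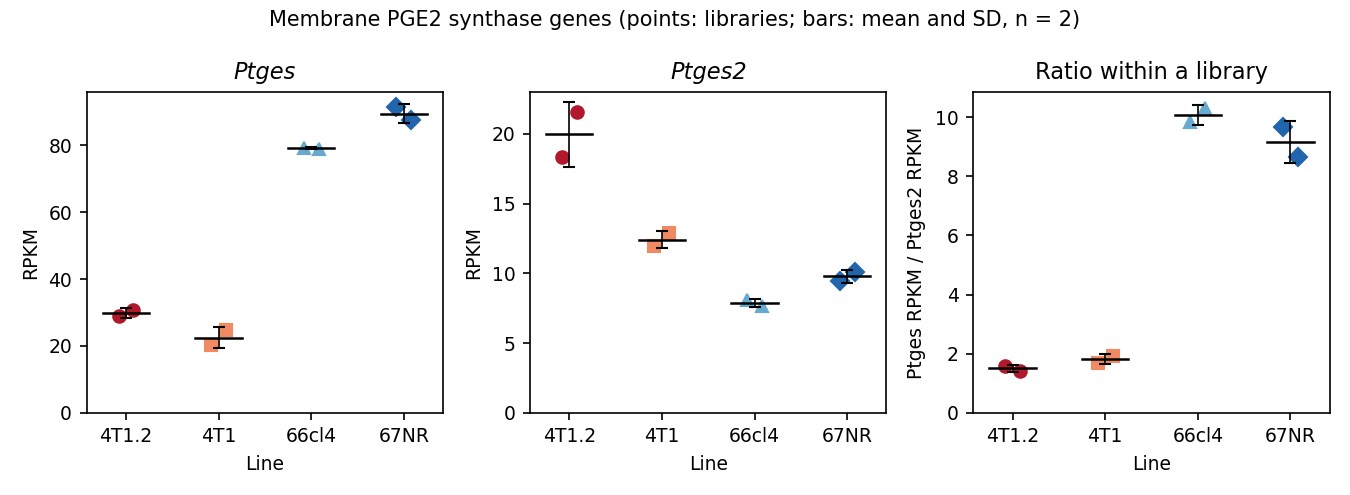
RPKM of Ptges (left) and Ptges2 (middle) and their ratio within each library (right) by line, with points for libraries and black bars for the mean and SD (n = 2). The ratio lies between 1.43 and 1.93 in the 4T1.2 and 4T1 libraries and between 8.66 and 10.3 in those of 66cl4 and 67NR.

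The opposite differences of the synthases changed their balance within a library. Ptges was 1.58 and 1.43 times as abundant per length as Ptges2 in 4T1.2, and 1.69 and 1.93 times in 4T1. In 66cl4 the ratio was 9.84 and 10.3 and in 67NR 9.67 and 8.66, so the libraries fell into separate ranges by pair of lines. Ptges3, the cytosolic synthase and Hsp90 co-chaperone that completes this enzymatic step, was named with its values known. It varied less, with line means of 12.9 ± 0.258 RPKM in 4T1.2, 12.8 ± 0.733 in 4T1, 10.9 ± 0.605 in 67NR and 10.2 ± 0.548 in 66cl4 (pooled log2 fold change 0.28, SE 0.07, adjusted p = 0.00480). Of the RPKM of the 3 synthase genes together, Ptges made up 44.5% to 49.6% in the 4T1.2 and 4T1 libraries and 80.3% to 82.1% in the 66cl4 and 67NR libraries. Sequence shared with other genes was searched for the 10 members and not for Ptges3, so its part in the Ptges3 counts and in these shares was not tested.

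Ptgis (chr2:167191805-167240604, minus strand) encodes the prostacyclin synthase of vessel walls. It had 23 and 20 counts in 4T1.2, 23 and 29 in 4T1, 31 and 46 in 67NR and 32 and 38 in 66cl4, or 0.201 to 0.357 RPKM in the first pair of lines and 0.403 to 0.484 RPKM in the second. These ranges did not overlap, at levels near the low end of the genes tested. Ptgis exons share 156 bases (6.1%) with 1110018N20Rik on the other strand, and the part of the shared bases in these counts was not tested. The pooled difference was 1.81-fold lower (log2 fold change -0.86, SE 0.22, adjusted p = 0.00510). 4T1.2 was below 66cl4 (log2 fold change -1.03, SE 0.32, adjusted p = 0.0151) and below 67NR (-1.05, SE 0.31, adjusted p = 0.0134). The first call was lost without 4T1.2 replicate 2 (0.0818) or 66cl4 replicate 2 (0.0803), and the second without 4T1.2 replicate 2 (0.0712) or 67NR replicate 1 (0.0574). The differences of 4T1 from 66cl4 (log2 fold change -0.66, adjusted p = 0.0786) and from 67NR (-0.68, adjusted p = 0.0705) did not pass, but did without 4T1 replicate 2 (adjusted p = 0.0307 and 0.0262).

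Ptgs1, Ptges, Ptges2 and Ptgis all lie on chromosome 2, whose 1110 tested genes did not stand at the median of all genes. Their median log2 fold change was 0.21 in the pooled comparison and 0.27 for 4T1.2 against 4T1, where the medians of all genes were -0.01 and 0.00. The part of that shift in the Ptgs1, Ptges and Ptges2 differences between 4T1.2 and 4T1 was not tested. In the pooled comparison Ptges2 went in the direction of the chromosome's median, and Ptgs1, Ptges and Ptgis in the opposite one. On chromosome 8, where Ptger1 lies, the median log2 fold change of 751 tested genes was -0.27 in the pooled comparison and -0.30 for 66cl4 against 67NR. Ptger1 went in the direction of that median in the former, at a similar size, and in the opposite one in the latter, and the part of the shift in its differences was not tested.

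Hpgd (chr8:56294585-56321043, plus strand), whose product oxidises prostaglandin E2 and so ends its signal, had 0 counts in all 8 libraries. A count of 0 allows up to 3 counts per library, which corresponds to at most 0.0283 to 0.0476 RPKM depending on the library and covers counting error only. The gene was not detectable at this depth, and no difference between lines could be measured.

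The prostaglandin E2 receptors were unequally expressed. Ptger1 encodes EP1, which raises cell calcium, Ptger2 and Ptger4 encode EP2 and EP4, which raise cAMP, and Ptger3 encodes EP3, which mainly lowers it. Ptger2 (chr14:44988195-45003820, plus strand) had 4 counts in 66cl4 replicate 1, 2 counts in 67NR replicate 2 and 0 in the other 6 libraries. Ptger3 (chr3:157566892-157645888, plus strand) had 2 counts in 4T1 replicate 2 and 0 in the other 7. At these counts the lines could not be compared for either receptor.

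Ptger4 (chr15:5206661-5244187, minus strand) was low and the most variable member, with a span of 2.46 between the highest and the lowest line mean on the log2 CPM scale. It had 18 and 21 counts in 4T1.2, 65 and 33 in 4T1, 40 and 57 in 67NR and 87 and 99 in 66cl4. Per length this was 0.107 and 0.125 RPKM in 4T1.2, 0.359 and 0.240 in 4T1, 0.368 and 0.311 in 67NR and 0.647 and 0.744 in 66cl4. Both 4T1.2 libraries were the lowest and both 66cl4 libraries the highest, while 4T1 and 67NR overlapped (log2 fold change -0.14, SE 0.26, adjusted p = 0.643). 4T1.2 was 5.97-fold below 66cl4 (log2 fold change -2.58, SE 0.28, adjusted p = 2.09e-05), 2.88-fold below 67NR (-1.53, SE 0.30, adjusted p = 0.00129) and 2.61-fold below 4T1 (-1.38, SE 0.30, adjusted p = 0.0107). 66cl4 was 2.07-fold above 67NR (log2 fold change 1.05, SE 0.24, adjusted p = 0.00642). The call between 4T1.2 and 4T1 was lost without 4T1.2 replicate 1 (0.0801) or 4T1 replicate 1 (0.0648), and that between 66cl4 and 67NR without 67NR replicate 2 (0.0698). In the pooled comparison Ptger4 was 2.57-fold lower (log2 fold change -1.36, SE 0.19, adjusted p = 0.000111).

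Of the stretches of 75 bases in Ptger4 transcripts, 13.2% also occur in transcripts of other genes, mostly the pseudogene Gm15937, so that part of its counts is uncertain. Its exons also share 82 bases with Ttc33 on the other strand. Ttc33 was 1.47-fold higher in the pooled comparison (log2 fold change 0.56, SE 0.08, adjusted p = 0.000123), the opposite direction to Ptger4. In 4T1.2 against 4T1 it was lower, as Ptger4 was (log2 fold change -0.51, adjusted p = 0.0119). The part of the shared bases in these counts was not tested.

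Ptger1 (chr8:83666678-83672753, plus strand) had uncertain counts, since much of its exon sequence is not unique to it and the strand setting of the counting is not given in the sources used here. They gave 9.68 and 9.25 RPKM in 4T1.2, 9.34 and 8.07 in 4T1, 9.20 and 10.1 in 67NR and 13.8 and 13.2 in 66cl4. The 66cl4 libraries stood above the rest, and the other 6 overlapped. Ptger1 was 1.40-fold higher in 66cl4 than in 67NR (log2 fold change 0.49, SE 0.11, adjusted p = 0.00558), a call lost without 67NR replicate 1 (0.0562). In the pooled comparison it was 1.26-fold lower (log2 fold change -0.33, SE 0.08, adjusted p = 0.00321), and it did not pass in a fit of 2 groups of 4 libraries (adjusted p = 0.0809).

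**Figure D3:**
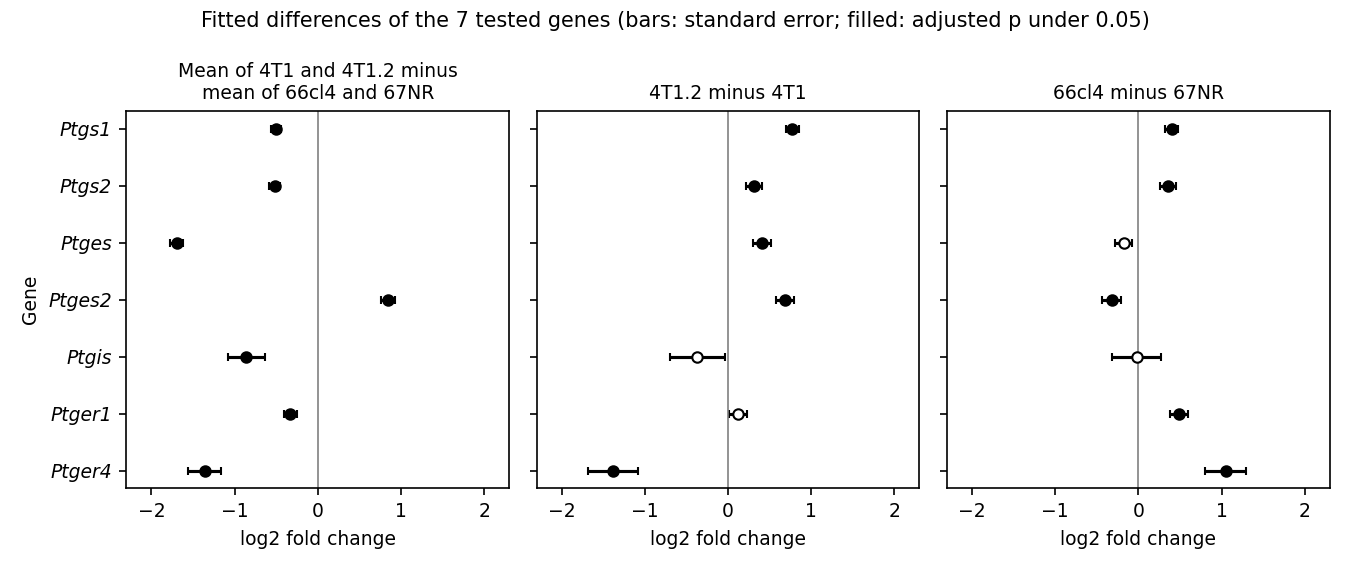
Fitted log2 fold changes (x axis) of the 7 tested genes for the pooled comparison, 4T1.2 minus 4T1 and 66cl4 minus 67NR, with points for estimates, bars for the standard error and filled points for an adjusted p under 0.05. Ptges (-1.70) and Ptger4 (-1.36) have the largest pooled differences, and Ptges2 (0.84) is the only pooled difference above 0.

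As a group, all 7 tested genes passed for a difference among the 4 lines and all 7 passed in the pooled comparison. Such calls were common, since 84.8% of all tested genes passed for a difference among the lines and 76.8% in the pooled comparison. Of the 7, 1 was higher and 6 were lower in 4T1 and 4T1.2, where 38.2% of all genes were higher and 38.6% lower. The libraries did not overlap between the pooled groups for 4 of the 7 (Ptgs2, Ptges, Ptges2 and Ptgis), against 55.5% of all genes. The median pooled log2 fold change of the 7 was -0.52. For 4T1.2 against 4T1, 5 of 7 passed (4 higher, Ptger4 lower), where 19.3% of all genes passed. For 66cl4 against 67NR, 5 of 7 passed (4 higher, Ptges2 lower), where 44.7% of all genes passed. 4T1.2 against 66cl4 had 7 of 7 (68.8% of all genes) and 4T1.2 against 67NR had 4 of 7 (67.9%). 4T1 against 66cl4 had 6 of 7 (70.0%) and 4T1 against 67NR had 4 of 7 (68.2%). These comparisons share libraries and are not independent of each other. Against these shares, the count of members was furthest from the background for 4T1.2 against 4T1. It was lower there in every fit that left out a library, and the share of all genes in those fits is not given here. Of the 4 members higher in 4T1.2, Ptgs1, Ptges and Ptges2 lie on chromosome 2, whose median log2 fold change there was 0.27. The part in this count of that shift, and of the high levels of Ptgs1, Ptgs2 and Ptges, was not tested.

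In all, 4 members spanned more than 1 on the log2 CPM scale between lines, and the genes most like them over the 8 libraries were found by Pearson's r of log2 CPM. The 8 libraries come in pairs of replicates from 4 lines, so that r mostly compares 4 line means. Nearest to Ptgs1 were Mpped2 (r = 0.997), Marcks (0.990) and Septin6 (0.986), and 40 genes had an r above 0.95. Nearest to Ptges were Ptpn13, a tyrosine phosphatase gene (0.998), Cav1, the caveolin-1 gene (also 0.998), and Ak5, an adenylate kinase gene (0.997), among 880 genes with an r above 0.95. Nearest to Ptges2 were Crls1, the cardiolipin synthase gene (0.994), Gorasp2 (0.991) and Armc9 (0.989), among 124 such genes. Nearest to Ptger4 were the corepressor gene Ctbp2 (0.984), the endocytic adaptor gene Dab2 (0.981) and Dcaf12 (0.977), among 49.

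Upstream of the cyclooxygenases, 18 of 23 phospholipase and arachidonate supply genes were tested. In the pooled comparison 5 were higher, 10 lower and 3 did not pass, with a median log2 fold change of -0.45 against -0.01 for all genes. Pla2g4a, the cytosolic phospholipase A2 that supplies the cyclooxygenases, was the most abundant with the desaturase gene Fads2. Its line means were 98.4 ± 0.900 RPKM in 4T1.2, 82.6 ± 4.08 in 4T1, 93.0 ± 2.13 in 67NR and 69.3 ± 1.89 in 66cl4 (SD, n = 2), and its pooled difference was small (log2 fold change 0.17, SE 0.06, adjusted p = 0.0221). Fads2, which makes precursors of arachidonic acid, was 1.28-fold lower (log2 fold change -0.36, SE 0.06, adjusted p = 0.000482). The secreted phospholipase gene Pla2g5 had 60 and 49 counts in 4T1.2, 24 and 28 in 4T1, 3646 and 6027 in 67NR and 1162 and 1152 in 66cl4, and was 73.3-fold lower in the pooled comparison (log2 fold change -6.20, SE 0.11, adjusted p = 3.86e-11). Pla2g4e had 2 to 8 counts per library in 4T1.2 and 4T1 and 20 to 196 in 66cl4 and 67NR, and the lipase gene Mgll 0 to 3 against 9 to 38. These are from the 10 lower genes. Among the 5 higher were Pla2g6 (log2 fold change 2.63, SE 0.10, adjusted p = 6.68e-09) and Acsl4 (1.87, SE 0.07, adjusted p = 7.18e-09), named with their values known.

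**Figure D4:**
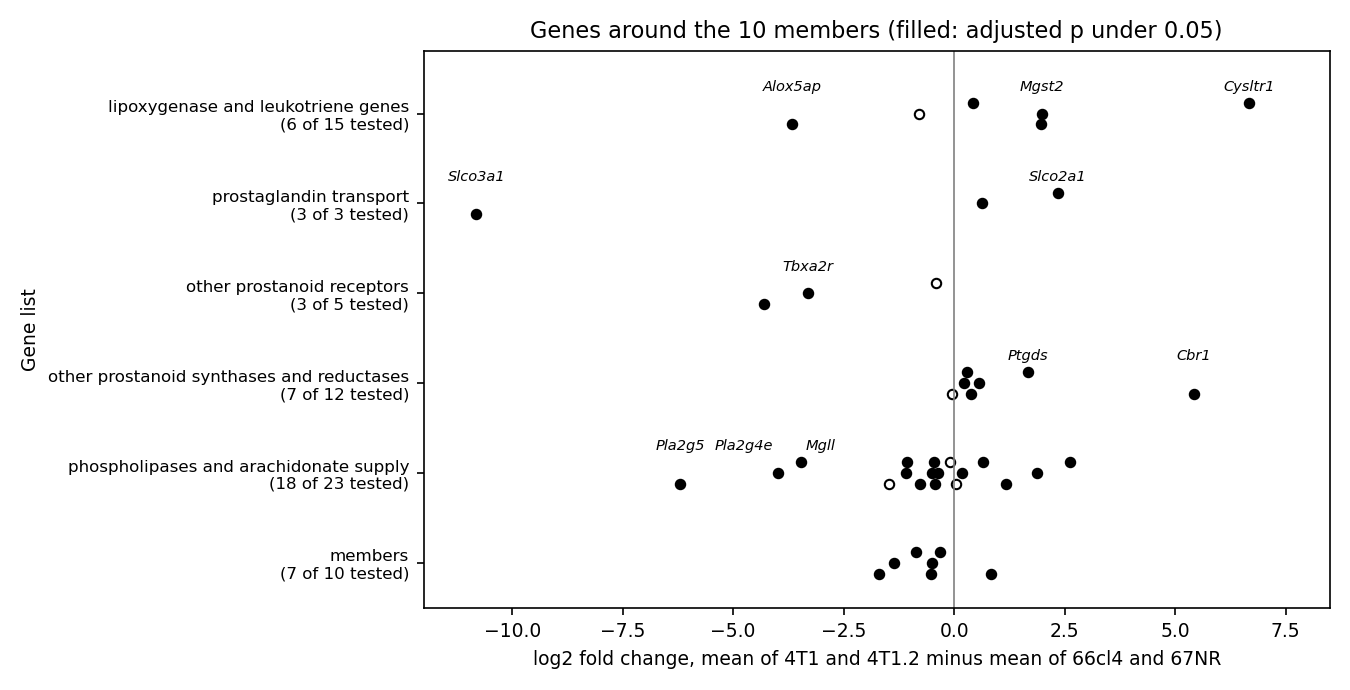
Pooled log2 fold changes (x axis) of the tested members and of the tested genes of 5 related lists (y axis), with filled points for an adjusted p under 0.05 and points spread vertically only for legibility. Pla2g5 (-6.20) and Alox5ap (-3.67) lie on the lower side and Cbr1 (5.42) and Slco2a1 (2.34) on the higher side, and values of genes with 3 or fewer counts in a group, such as Slco3a1, depend on the prior count of the fit.

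Of 12 other prostanoid synthases and reductases, 7 were tested, and 6 were higher, none lower and 1 did not pass in the pooled comparison (median log2 fold change 0.38). Cbr1, a carbonyl reductase gene whose product can reduce prostaglandin E2, stood out with 1478 and 1645 counts in 4T1.2, 801 and 724 in 4T1, 17 and 25 in 67NR and 25 and 20 in 66cl4. It was 42.8-fold higher in the pooled comparison (log2 fold change 5.42, SE 0.13, adjusted p = 2.17e-10) and 1.92-fold higher in 4T1.2 than in 4T1 (log2 fold change 0.94, SE 0.13, adjusted p = 0.000979). Ptgds, the prostaglandin D synthase gene, was 3.20-fold higher (log2 fold change 1.68, SE 0.22, adjusted p = 6.31e-05) at 92 to 117 counts in 4T1.2 and 4T1 and 16 to 36 in 66cl4 and 67NR. Ptgr2 and Zadh2, genes of enzymes that reduce 15-keto prostaglandins after the step of Hpgd, were the most abundant of the list. Ptgr2 was 1.47-fold higher (log2 fold change 0.56, SE 0.06, adjusted p = 9.77e-06), and Zadh2 did not pass (log2 fold change -0.06, SE 0.06, adjusted p = 0.415). Within the pairs of lines 1 was higher and 2 were lower for 4T1.2 against 4T1, and 0 were higher and 3 lower for 66cl4 against 67NR.

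Of 5 receptors of other prostanoids, 3 were tested, and 2 were lower and 1 did not pass in the pooled comparison. Tbxa2r, the thromboxane receptor gene, had 3 and 1 counts in 4T1.2, 8 and 4 in 4T1, 27 and 68 in 67NR and 23 and 17 in 66cl4, and was lower (adjusted p = 1.52e-05). Ptgir, the prostacyclin receptor gene, had 15 to 63 counts per library and did not pass (log2 fold change -0.40, SE 0.23, adjusted p = 0.133), but was 3.03-fold lower in 66cl4 than in 67NR (log2 fold change -1.60, SE 0.31, adjusted p = 0.00256). No receptor of this list had more than 68 counts in any library.

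All 3 transporter genes differed in the pooled comparison. Slco2a1, which takes up prostaglandins from outside the cell, was 5.07-fold higher (log2 fold change 2.34, SE 0.12, adjusted p = 5.05e-08). Its line means were 46.6 ± 10.1 RPKM in 4T1.2, 40.5 ± 7.17 in 4T1, 4.21 ± 0.215 in 67NR and 17.4 ± 1.67 in 66cl4 (SD, n = 2). 66cl4 was 4.13-fold above 67NR (log2 fold change 2.05, SE 0.17, adjusted p = 1.35e-05), and 4T1.2 and 4T1 did not pass (log2 fold change 0.20, SE 0.16, adjusted p = 0.437). Abcc4, an exporter of prostaglandin E2, was 1.54-fold higher (log2 fold change 0.62, SE 0.09, adjusted p = 0.000112), with line means of 5.72 ± 0.597, 3.66 ± 0.523, 2.76 ± 0.0518 and 3.21 ± 0.0827 RPKM in 4T1.2, 4T1, 66cl4 and 67NR. Slco3a1 had 2, 0, 1 and 1 counts in the 4T1.2 and 4T1 libraries and 1316 to 1966 counts in those of 66cl4 and 67NR. The ratio of Slco2a1 to Abcc4 RPKM was 7.44 to 11.3 in the 4T1.2 and 4T1 libraries, 5.81 and 6.83 in 66cl4 and 1.338 and 1.291 in 67NR, so that it was lowest in 67NR.

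The leukotriene branch uses the same arachidonic acid. Of 15 lipoxygenase and leukotriene genes, 6 were tested, and 4 were higher, 1 lower and 1 did not pass in the pooled comparison (median log2 fold change 1.198). Against 66cl4, 4 were higher and 1 lower for both 4T1.2 and 4T1. Against 67NR, 1 was higher and 2 were lower for 4T1.2 (median log2 fold change -0.07). For 4T1 against 67NR, 3 were higher and 2 lower (median -0.26). The lipoxygenase gene Alox5, named with its values known, had at most 2 counts in any library. Its partner Alox5ap, which presents arachidonic acid to it, had 5 and 5 counts in 4T1.2, 20 and 21 in 4T1, 138 and 247 in 67NR and 66 and 65 in 66cl4, and was 12.7-fold lower in the pooled comparison (log2 fold change -3.67, SE 0.19, adjusted p = 5.69e-08). Mgst2, a glutathione transferase gene of leukotriene synthesis, was 3.98-fold higher (log2 fold change 1.99, SE 0.12, adjusted p = 2.09e-07), though 66cl4 alone was low, at 10.8 ± 0.321 RPKM against 73.5 ± 3.88 in 67NR (SD, n = 2). Lta4h, the leukotriene A4 hydrolase gene, was 1.35-fold higher (log2 fold change 0.43, SE 0.08, adjusted p = 0.000766). Cysltr1, a leukotriene receptor gene, had 660 and 539 counts in 4T1 and 0 to 6 in the libraries of the other 3 lines.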

How the data were processed

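RNA-seq was deposited for 4 lines with 2 biological replicates each. The values deposited by the authors are raw counts per Entrez gene, made with featureCounts on mm10, without normalization. The aligner was Rsubread and the kit TruSeq RNA v2, per the study's methods.

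The counts were fitted with edgeR 4.0.16 (limma 3.58.1, R 4.3.3), its quasi-likelihood F-test and legacy fit, TMM scaling and a mean for each line over all 8 libraries. After filterByExpr (15269 genes), genes of ribosomal proteins or rRNA, predicted genes and the identifiers that a RefSeq table lacks (25275 of 27179 matched) were removed, which left 13925 genes. Benjamini-Hochberg adjusted p-values cover all of them, with a threshold of 0.05. SE is the log2 fold change over the root of F and is approximate. Replicates varied by 9.73% (common biological coefficient of variation), and limits at 0 counts cover counting error only.

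The members and lists were chosen with earlier results of these data known. Named in the lists by rule were at most 5 genes each, those with the highest mean RPKM and those with the largest pooled change without overlap. Named beside them were the 3 genes most like a member and genes that overlap a member's exons. Some genes that these rules or lists hold are not reported here. Locations and overlaps came from GENCODE M21 on GRCm38 and promoters from RefSeq. The starts in these sources can differ, and the printed Ptges promoter lies within the GENCODE span of Ptges. On simulated counts for the 13925 genes of the pooled comparison, edgeR recovered 192 of 200 genes changed 3-fold, with 10 false calls. For 4T1.2 against 4T1 it recovered 185 of 200, with 7 false calls. Most member differences were smaller than 3-fold, and 76.8% of all genes passed in the real pooled comparison. Recovery under those conditions was not tested. Alternatives were DESeq2 1.42.0 (its size factors and its test), limma-voom, robust estimation, other filters, a null of at most 1 in log2 fold change, 2 groups of 4 libraries, the replicate number as a block and each library left out.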

Additional observations from a re-analysis of the deposited data

How the results depend on the processing

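Of the 7 tested members, 7 passed in the pooled comparison under DESeq2's size factors, no filter, a filter of at least 10 counts, no removal by annotation, robust estimation, DESeq2's test, limma-voom and each library left out. In the fit reported above 76.8% of all genes passed in that comparison, and their shares under these alternatives are not given here. In a fit of 2 groups of 4 libraries 5 members passed (8109 of all 13925 genes, against 10690 in the fit reported above). Against a log2 fold change of 1 (edgeR's glmTreat), 2 passed pooled (Ptges and Ptger4, and 3620 genes of all tested), 0 for 4T1.2 against 4T1 (1, Ptger4, at an unadjusted p under 0.05, and 303 genes of all tested adjusted), 0 for 66cl4 against 67NR (0 unadjusted, and 1056 genes of all tested adjusted, and no other tool was run against this null), 3 for 4T1.2 against 66cl4 (3512 genes of all tested), and 1 each, Ptges, for 4T1.2 against 67NR (3430), 4T1 against 66cl4 (3685) and 4T1 against 67NR (3405). This null is stricter than that of the fits above, and what else lowered these counts was not tested. Each fit that left out a library kept 1 library in a line. In all 8, fewer members passed for 4T1.2 against 4T1 than with all libraries, and in some fewer passed for 66cl4 against 67NR. The share of all genes that passed in these fits is not given here, so the drop cannot be read as particular to the members. Ptgs2 for 4T1.2 against 4T1 passed in 1 of the 8 such fits, with adjusted p-values from 0.0164 to 0.266 over all alternatives but the test against 1, where it was 1.00.

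Differences that had not passed changed sign without a library. Leaving out each library gave Ptgis -0.72 to 0.0085 (log2) for 4T1.2 against 4T1, above 0 without 4T1 replicate 2, and -0.16 to 0.11 for 66cl4 against 67NR, above 0 without 66cl4 replicate 1 (0.11) or 67NR replicate 1 (0.06). It gave Ptger1 -0.088 to 0.041 for 4T1.2 against 67NR, above 0 without 67NR replicate 2, and Ptger4 -0.48 to 0.090 for 4T1 against 67NR, above 0 without 4T1 replicate 2. No call changed sign under any alternative.

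Replicate numbers were not taken as pairs, since no label ties them to a batch and not every correlation of same-numbered deviations between lines was above 0.1. They were 0.67, 0.27 and 0.16 among 4T1.2, 4T1 and 67NR, and -0.31, -0.15 and -0.09 for the pairs with 66cl4. With the replicate block, 7 members passed in the pooled comparison and the number that passed was as in the fit without it in every comparison. An exchange of the 66cl4 numbers, added after the data were seen, gave 7 in the pooled comparison (11145 genes in all against 10690), 5 for 4T1.2 against 4T1 (3694 against 2687) and 5 for 66cl4 against 67NR (7168 against 6218). At this depth Hpgd, Ptger2 and Ptger3 could not be compared.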
